A study of Homo sapiens with 4 samples.

Results

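PC3 and DU145 are established prostate cancer cell lines that grow without androgen, and the expression of 10 genes that make, move, break down or sense prostaglandin E2 was followed in both after knockdown of ESS2, a nuclear protein found with the spliceosome. The genes were PTGS1, PTGS2, PTGES, PTGES2, PTGES3, HPGD, PTGER2, PTGER4, PLA2G4A and SLCO2A1. They are a list of named pathway genes, taken up because PTGS2 differed in opposite directions in the 2 lines, so the differences between knockdown and control given here are the values that chose the set. All 10 were found on the array through the accession of their probes, by 11 probes of the 35077 that could be given a gene symbol, and they are 10 of 25121 genes with a symbol.

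Total RNA was hybridized to 1-colour (Cy3) Agilent human arrays, 4 in all and 1 for each of PC3-shC, PC3-shESS2, DU145-shC and DU145-shESS2. The shC cells of either line carried a control shRNA against luciferase, a gene these cells lack, and the shESS2 cells carried an shRNA against ESS2, in the labels by lentivirus. The study's methods give plasmid transfection and puromycin selection for the stable PC3 cells, which differs from the labels, and the making of the DU145 cells is given by the labels alone. Every array thus comes from cells with an shRNA, and there is 1 population of each kind. The PC3 arrays shared 1 slide and the DU145 arrays another, so cell line and slide cannot be told apart. Each condition has 1 array. No difference between knockdown and control within a line therefore has a replicate check or a p-value, and having so few arrays sets the precision of all that follows.

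Prostaglandin E2 is made in steps. A phospholipase frees arachidonic acid from membrane lipids, a cyclooxygenase (PTGS1 or PTGS2) turns it into the unstable prostaglandin H2, and a terminal synthase makes prostaglandin E2 from that. The product leaves the cell, acts through G protein-coupled receptors, and is taken back up and oxidized. PTGS2 is the inducible cyclooxygenase and is well known in prostate and other carcinomas as an inflammatory gene, while PTGS1 is the constitutive one.

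The sequence just before the transcription start is shown for the 4 members with the widest differences in PC3, because PTGS2, PTGES and PLA2G4A were lower together there and PTGER4 was higher. Each line gives the 250 bases before the start from the RefSeq table (GRCh38.p14), 5′ to 3′ on the strand of the gene, and the capitals mark every match, on either strand, to TATAAA (the core promoter box), GGGCGG (GC box), TGACG (core of the cAMP response element), CANNTG (E-box), TTNCNNAA (C/EBP type), TGANTCA (AP-1) and the NF-κB consensus.
PTGS2, chr1:186680424-186680673, minus strand: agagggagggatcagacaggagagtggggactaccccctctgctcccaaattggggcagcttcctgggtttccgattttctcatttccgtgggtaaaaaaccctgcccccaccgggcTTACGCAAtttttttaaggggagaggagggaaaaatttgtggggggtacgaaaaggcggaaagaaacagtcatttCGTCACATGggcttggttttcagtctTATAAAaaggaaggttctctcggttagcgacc
PTGES, chr9:129753043-129753292, minus strand: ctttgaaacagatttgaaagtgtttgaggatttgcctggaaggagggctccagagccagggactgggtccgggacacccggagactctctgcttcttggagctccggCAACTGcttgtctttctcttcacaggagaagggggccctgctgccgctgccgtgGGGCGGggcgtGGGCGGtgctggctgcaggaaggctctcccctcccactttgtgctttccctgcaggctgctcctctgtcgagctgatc
PLA2G4A, chr1:186828699-186828948, plus strand: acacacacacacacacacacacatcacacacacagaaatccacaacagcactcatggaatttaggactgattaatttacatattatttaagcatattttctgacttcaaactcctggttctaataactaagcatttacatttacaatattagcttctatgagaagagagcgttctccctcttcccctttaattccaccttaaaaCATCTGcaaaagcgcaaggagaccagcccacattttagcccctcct
PTGER4, chr5:40679665-40679914, plus strand: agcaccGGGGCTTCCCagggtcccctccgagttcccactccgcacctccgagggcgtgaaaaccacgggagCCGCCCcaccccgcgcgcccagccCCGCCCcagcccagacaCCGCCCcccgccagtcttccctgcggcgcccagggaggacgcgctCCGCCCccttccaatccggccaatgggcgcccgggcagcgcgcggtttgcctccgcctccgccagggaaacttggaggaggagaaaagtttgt
In the PTGS2 promoter the capitals mark a TATAAA match 32 to 27 bases before the start, a cAMP element core 58 to 54 bases before it that overlaps an E-box (bases 55 to 50), and a C/EBP-type match at bases 133 to 126. TATAAA is found in 10.7% of the 35116 promoter entries of this length, TGACG in 21.2%, CANNTG in 61.8% and TTNCNNAA in 33.2%. The PTGES promoter held an E-box and a pair of GC boxes, and the PLA2G4A promoter held an E-box alone. The PTGER4 promoter held 4 GC boxes, a motif present in 42.6% of entries, and the NF-κB consensus, present in 9.96%. That consensus was read as GGGRNNYYCC, with R for A or G and Y for C or T. The PTGS2 window holds gggactaccc, which comes close to this pattern without matching it and is unmarked. A lack of capitals therefore does not show the lack of a site. TGANTCA, found in 6.57% of entries, matched none of the 4. The windows also differed in base composition, with 50.4% G or C for PTGS2, 61.2% for PTGES, 38.8% for PLA2G4A and 72.8% for PTGER4, against a median of 58% over all entries. These matches describe letters in the reference and are not measured binding. No window was in the table for SLCO2A1.

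The arrays were first checked against their labels. Signals are the scanner software's background-subtracted intensity of a spot, given with the error that software assigns to it, and a spot counts as above background where the software calls it well above background. ESS2 mRNA gave a signal of 133 ± 13.4 in PC3-shC and 53.6 ± 5.65 in PC3-shESS2 cells. In DU145-shC it gave 85.7 ± 8.74 and in DU145-shESS2 17.3 ± 2.36. After each array was scaled to its 75th percentile, ESS2 was thus 2.74-fold lower in PC3-shESS2 and 5.09-fold lower in DU145-shESS2 than in the control of the line. With normexp background correction (offset of 50) the log2 ratios of ESS2 were -0.90 in PC3 and -1.13 in DU145, in place of -1.45 and -2.35. GAPDH differed by 0.18 and 0.044 and ACTB by 0.15 and -0.039 on the log2 scale, in PC3 and DU145. CTNNA1, which is deleted in PC3, was not above background on either PC3 array and gave 4320 and 4810 on the DU145 arrays, and KLK3, the prostate-specific antigen, was below background on all 4. Epithelial markers were above background on every array, 5 of 5, with a summed signal between 56456 and 246230. Of 6 fibroblast markers 2 or 3 an array were above background (summed signal 96.1 to 297.6). LUM among them was 4.47-fold higher in PC3-shESS2 than in PC3-shC (9.9 and 48.8), while the log2 ratios of COL1A1 and PDGFRB there were -0.57 and -0.12. The epithelial marker EPCAM was 6.11-fold lower in DU145-shESS2 than in DU145-shC, while the log2 ratios of the other epithelial markers there lay between -0.033 and 0.28, and what part this has in the other DU145 values was not tested.

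The plot of signals by array shows the 10 genes side by side. In PC3 cells, knockdown of ESS2 went with lower mRNA of the phospholipase PLA2G4A, the cyclooxygenase PTGS2 and the synthase PTGES, each by over 4-fold, and with 2.75-fold higher mRNA of the receptor PTGER4. In DU145 cells PTGES and PTGS2 were higher with knockdown, by 3.35-fold and at least 2.46-fold, and the receptor PTGER2 was 2.21-fold higher. With normexp the DU145 log2 ratios of PTGS2 and PTGER2 were each 0.38, under 2-fold. PTGS1 was not above background anywhere.

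**Figure D1:**
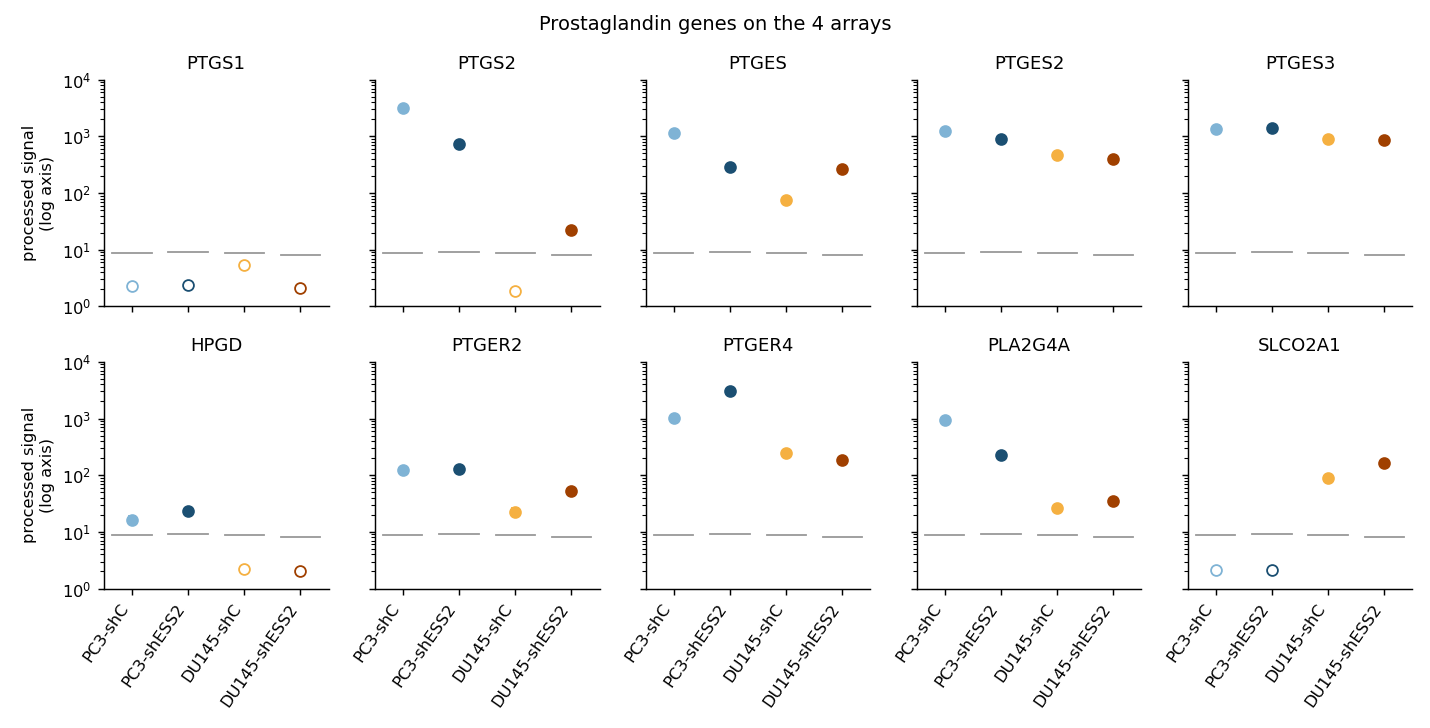
Processed signal (log axis) of the 10 prostaglandin genes on the 4 arrays, each gene by the probe used for it. Filled points are well above background and carry the scanner software's error, which is smaller than most points, open points are dim, and the grey lines are the lowest signal called above background on that array (8.15 to 9.02). PTGS2, PTGES and PLA2G4A step down from PC3-shC to PC3-shESS2, PTGER4 steps up, and PTGS1 is an open point on every array.

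PTGS2 gave a signal of 3150 ± 315 in PC3-shC and 733 ± 73.3 in PC3-shESS2 cells. It gave 1.90 in DU145-shC, where it was not above background, and 21.9 ± 2.82 in DU145-shESS2 cells. The PC3 control was thus the highest of the 4 arrays by far, and PTGS2 in DU145 went from a dim spot to one a little over the limit of detection. In PC3 the knockdown was 4.74-fold lower (log2 ratio -2.24 ± 0.20, scanner error), and of 16751 genes compared in that line 123 had a lower ratio. In DU145 the ratio is a bound, since the control value was raised to the lowest signal called above background on that array. On that footing PTGS2 was at least 2.46-fold higher in DU145-shESS2 (log2 at least 1.30 ± 0.19). It entered the DU145 comparison through the knockdown array alone, so it could only come out higher there. In bulk RNA, fewer cells with a transcript and less transcript per cell cannot be told apart. PTGS1, the constitutive cyclooxygenase, has 2 probes, and neither was above background on any array, with signals from 1.84 to 5.48.

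PLA2G4A, the cytosolic phospholipase that frees arachidonic acid and the step before PTGS2, followed it in PC3. Its probe was printed 10 times on each array, and the spots that passed the outlier flags, 8 to 10 an array, give a spread within the array. In PC3-shC they lay between 880 and 1000, with a median of 948, and in PC3-shESS2 between 219 and 240, with a median of 225.5. The spots of the PC3 arrays were far from overlapping, and the mean was 4.60-fold lower with knockdown (log2 -2.20). In DU145-shC the spots ran from 20.8 to 35.2, with a median of 25.7, and in DU145-shESS2 from 32.2 to 39.4, with a median of 35.2. Here the spots overlapped, and the means differed by 1.32-fold, upwards (log2 0.41). The spread between spots covers neither the hybridization nor the cells.

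In the RefSeq table PTGS2 and PLA2G4A are neighbouring protein-coding genes on chromosome 1, with the noncoding PACERR alone listed between them, and PACERR was not analysed here. The nearest protein-coding gene above background on the other side of PTGS2, ODR4, gave 684 and 497 in PC3-shC and PC3-shESS2, a log2 ratio of -0.60, and 679 and 606 in DU145, a log2 ratio of -0.20. PDC, which lies between ODR4 and PTGS2, was dim on all 4 arrays.

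The 3 terminal synthases differed from each other. PTGES, the inducible microsomal synthase that works with PTGS2, gave 1140 ± 114 in PC3-shC and 283 ± 28.4 in PC3-shESS2 cells. In DU145 the order was the other way round, with 75.7 ± 7.84 in DU145-shC and 261 ± 26.2 in DU145-shESS2 cells. It was therefore 4.44-fold lower in PC3-shESS2 (log2 -2.15 ± 0.20) and 3.35-fold higher in DU145-shESS2 (log2 1.75 ± 0.21), and all 4 of its spots were well above background. Of 16826 genes compared in DU145, 90 had a higher ratio than PTGES. PTGES2, the second microsomal synthase, gave 1240, 897, 461 and 405 on the PC3-shC, PC3-shESS2, DU145-shC and DU145-shESS2 arrays, with log2 ratios of -0.61 in PC3 and -0.23 in DU145. PTGES3, the cytosolic synthase that is also the p23 co-chaperone, gave 1330, 1420, 909 and 872, with log2 ratios of -0.047 and -0.10, both smaller than the scanner error of 0.20. Neither differed by 2-fold in any comparison within a line.

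The receptors differed from each other. PTGER4, which couples to cAMP as the EP4 receptor, gave 1020 ± 102 in PC3-shC and 3090 ± 309 in PC3-shESS2 cells, a 2.75-fold higher level (log2 1.46 ± 0.20). In DU145 it gave 242 ± 24.3 and 183 ± 18.5, a log2 ratio of -0.44. PTGER4 was thus higher on the array where PTGS2, PTGES and PLA2G4A were lower. PTGER2, the EP2 receptor, gave 126 ± 12.8 and 129 ± 13.2 in PC3, and 22.7 ± 3.19 and 51.6 ± 5.56 in DU145. Its log2 ratio was -0.11 in PC3, less than the scanner error of 0.21, and 1.14 ± 0.26 in DU145.

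Removal was measured in a different line for each of its genes. SLCO2A1, the carrier that takes prostaglandins back into cells, was dim on both PC3 arrays (2.10 and 2.13), and gave 90.7 ± 9.30 in DU145-shC and 166 ± 16.7 in DU145-shESS2 cells, a log2 ratio of 0.83. HPGD, the dehydrogenase that inactivates prostaglandin E2 by oxidizing it, was dim on both DU145 arrays and gave 16.5 ± 2.77 in PC3-shC and 23.3 ± 3.30 in PC3-shESS2 cells. Its log2 ratio of 0.36 was close to its error of 0.32.

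Counted at 2-fold, 3 of the 8 members compared in PC3 were lower with knockdown (PTGS2, PTGES and PLA2G4A) and 1 was higher (PTGER4). Among all 16751 genes compared in PC3, 3.87% were lower and 3.88% higher by that measure. In DU145, 0 of 8 were lower and 3 were higher (PTGS2, PTGES and PTGER2), where 2.47% and 2.36% of 16826 genes were. The median log2 ratio of the members was -0.36 in PC3, against -0.055 for all genes, and 0.62 in DU145, against -0.022. Single spots of probes printed 10 times had a median SD of the log2 ratio of 0.084 over 286 probes in PC3 and 0.082 over 283 in DU145, again within the arrays alone. Since the set was chosen on PTGS2 in this contrast, these counts describe it and support nothing further. PTGS2 and PTGES were both past 2-fold downwards in PC3 and upwards in DU145, which 27 of the 15462 genes compared in both lines were, or 0.175%. The plot of PC3 against DU145 ratios places them there, with PTGER4 on the opposite side.

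**Figure D2:**
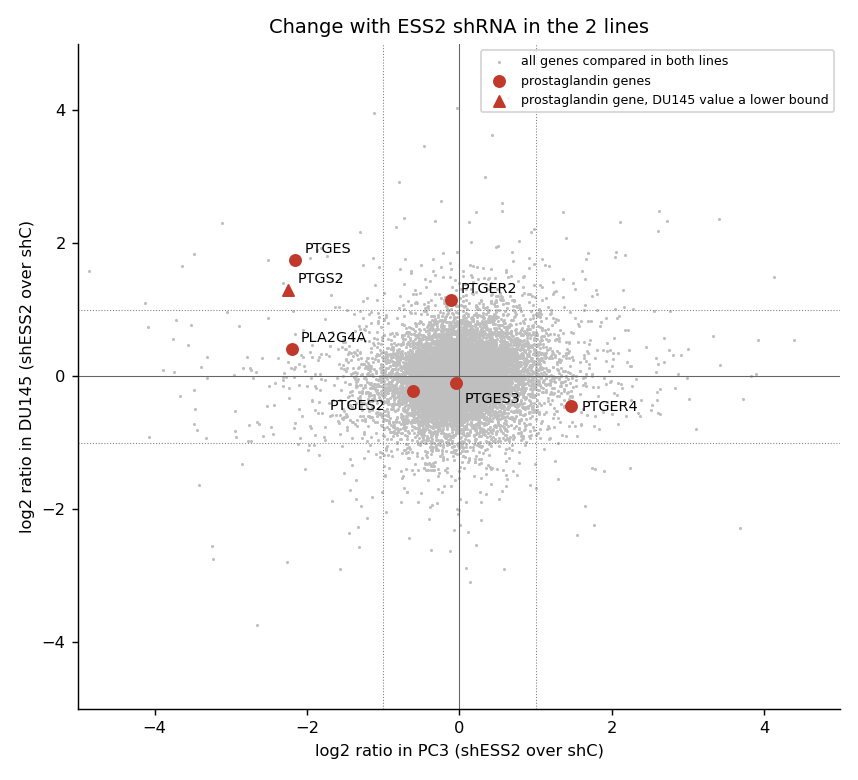
Log2 ratio of shESS2 over shC in PC3 (horizontal) against that in DU145 (vertical) for the 15462 genes compared in both lines (grey, of which 12 fall outside the range drawn), with the members compared in both lines in red and dotted lines at 2-fold. PTGS2, whose DU145 value is a lower bound, and PTGES lie at upper left, PLA2G4A lies left with a DU145 ratio of 0.41, and PTGER4 lies right at 1.46.

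The level of each gene in one line against the other is not part of the rule that named the set, though the set was chosen with earlier results of these data known, and it could be tested over the 4 arrays with the shC and shESS2 arrays as the pair of samples for each line. In the limma fit to all genes, with a term for knockdown and 1 residual degree of freedom, 7 of the 9 members tested passed an adjusted p of 0.05, 6 of them higher in PC3 and 1 in DU145, where 28.5% of 17126 genes were called higher in PC3 and 23.8% higher in DU145. HPGD among the 6, and SLCO2A1, the 1, were above background in a single line, so the direction of their calls was fixed by the filter. The residual of this fit is the difference between the responses of the 2 lines, so a gene that differed in opposite directions has a wide error in it, and line and slide remain 1 factor. Called members came to 4 with the authors' scaled values, which ended the calls of PTGES2 (adjusted p = 0.0962), HPGD (0.171) and PTGER2 (0.0687), and to 3 with no filter on dim genes, which took in PTGS1 from floor values alone and ended those of PTGS2 (0.117), PLA2G4A (0.159) and PTGER4 (0.152), among others.

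PTGS2 was higher in PC3 than in DU145 by 6.43 ± 0.92 on the log2 scale (SE, adjusted p = 0.0108, limma). On the control arrays the gap was at least 294-fold, with the dim DU145-shC value at its floor, and on the knockdown arrays it was 25.2-fold. PTGS2 was thus the member with the widest gap in favour of PC3, and the change of the gap restates the opposite ratios that named the set. PLA2G4A was higher in PC3 by 3.56 ± 0.69 (adjusted p = 0.0206, limma), 29.1-fold on the control arrays and 4.77-fold on the knockdown arrays. PTGER4 was higher in PC3 by 2.72 ± 0.52 (adjusted p = 0.0198, limma), and its gap went the other way, from 3.40-fold on the control arrays to 12.7-fold on the knockdown arrays. PTGER2, by 1.54 (adjusted p = 0.033), PTGES2, by 0.93 (adjusted p = 0.027), and HPGD, by 0.86 (adjusted p = 0.037), were also called higher in PC3 by limma. With normexp the differences came to 4.27 for PTGS2, 2.23 for PLA2G4A and 0.61 for PTGER2, and to 0.054 for HPGD (adjusted p = 0.746, limma). With the plain signal of its dim DU145-shC spot, that of PTGS2 was 7.52.

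SLCO2A1 was the member called higher in DU145, with a PC3 minus DU145 value of -4.13 ± 0.30 on the log2 scale (adjusted p = 0.00333, limma). Both PC3 values stood at the floor, and with normexp the value was -1.81. For PTGES the fitted difference of 1.65 ± 1.01 did not pass (adjusted p = 0.236, limma). Its gap was 12.1-fold on the control arrays, in favour of PC3, and 1.23-fold in favour of DU145 on the knockdown arrays, so that the signals of 283 and 261 in the knockdown cells were close while those of the controls were not. PTGES3 differed by 0.26 ± 0.18 (adjusted p = 0.271, limma), by 0.65 with median scaling (adjusted p = 0.0484, limma) and by -0.0075 with quantile normalization. Neither value shows that the lines have the same level. The plot of gaps between the lines sets the control and knockdown values side by side.

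**Figure D3:**
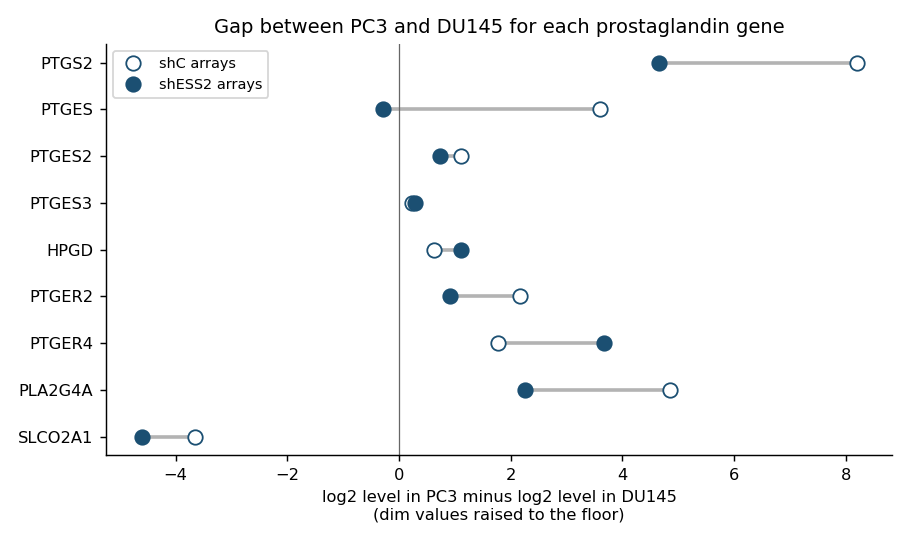
Log2 level in PC3 minus log2 level in DU145 (horizontal, dim values raised to the floor) for the 9 members above background on at least 1 array, on the shC arrays (open) and the shESS2 arrays (filled). The PTGS2 gap runs from 8.20 to 4.65, the PTGES gap from 3.60 to -0.29, the PLA2G4A gap from 4.86 to 2.25, and the PTGER4 gap widens from 1.76 to 3.67.

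The genes most like PTGS2 over the 4 arrays were taken from 14686 genes well above background on all 4. PTGS2 itself was dim in DU145-shC, and its value there was raised to the floor. Likeness was the Euclidean distance between log2 values after each gene was centred on its own mean. The nearest 5 were LINC01133, a noncoding RNA (distance 0.93), the gap junction protein GJA1 (1.16), the sialyltransferase ST3GAL1 (1.32), the chemokine CXCL5 (1.34) and the protease inhibitor SLPI (1.36). Each was bright in PC3 and far dimmer in DU145. LINC01133, for instance, gave 2520 and 1310 in PC3-shC and PC3-shESS2 and 12.7 and 20.8 in DU145-shC and DU145-shESS2. Their log2 ratios with knockdown ran from -1.16 to -0.67 in PC3 and from 0.16 to 1.77 in DU145. Among the members PLA2G4A was the nearest, in place 105 (distance 2.94), followed by PTGER4 in place 759 and PTGES in place 843. These are places over 4 values, most of whose spread lies between the lines, and carry no test.

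The wider pathway was read from 8 lists with 108 genes, of which 106 were on the array. In PC3, 82 were compared, 6 were over 2-fold lower and 4 over 2-fold higher with knockdown, with a median log2 ratio of -0.10, beside 3.87% and 3.88% of all genes. In DU145, 86 were compared, 3 were lower and 7 higher, with a median of 0.081, beside 2.47% and 2.36%. The plot of pathway lists gives every gene of each.

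**Figure D4:**
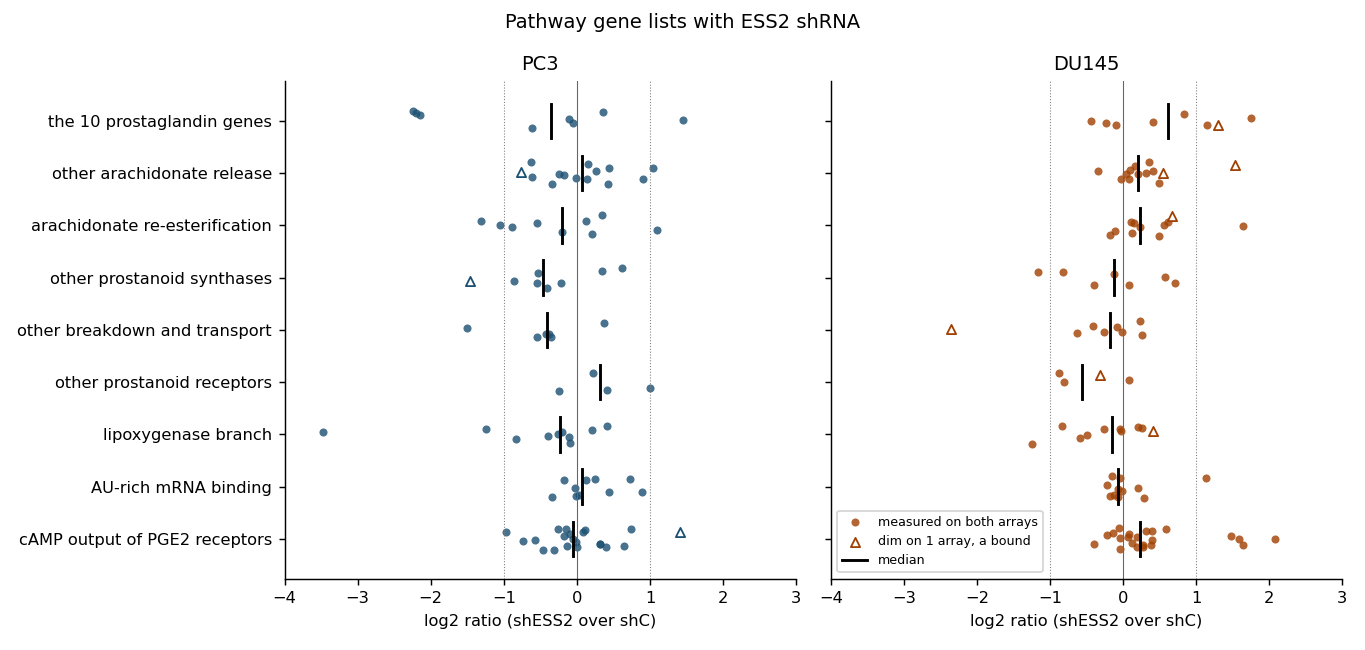
Log2 ratio of shESS2 over shC (horizontal) in PC3 (left) and DU145 (right) for the members and 8 pathway lists, 1 point a gene compared, with triangles for genes dim on 1 array, a black bar at each median and dotted lines at 2-fold. The lists gather around 0, the PGE2 output list has its 4 highest genes past 2-fold in DU145, and ALOX5AP stands alone at -3.47 in PC3 (-1.60 with normexp).

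Upstream of the cyclooxygenases, none of the 14 other arachidonate-releasing genes compared in PC3 was over 2-fold lower, beside 3.87% of all genes. MGLL, the monoacylglycerol lipase, was 2.07-fold higher there (1110 and 2530). In DU145 the phospholipase PLA2G4D was at least 2.89-fold higher, from a dim spot to a signal of 25.7, and could only come out higher there. Among the genes that put arachidonic acid back into lipids, 2 of 9 were over 2-fold lower and 1 higher in PC3, beside 3.87% and 3.88% of all genes. ACSL1, an acyl-CoA synthetase, was 2.49-fold lower (949 and 420). LPCAT1, a lysophospholipid acyltransferase, was 2.08-fold lower in PC3 (1270 and 673) and 3.11-fold higher in DU145 (356 and 1140), and it was the only gene of the 8 lists past 2-fold in opposite directions. MBOAT2, another such acyltransferase, was 2.13-fold higher in PC3 (156 and 367).

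Among synthases of other prostanoids, PTGIS, the prostacyclin synthase, was at least 2.75-fold lower in PC3, from 22.5 to a dim spot, and was dim in DU145. It entered through the control array alone, so it could only come out lower in PC3. CBR3, a carbonyl reductase, was 2.23-fold lower in DU145 (280 and 129). Of the other carriers, SLCO4A1 was 2.84-fold lower in PC3 (8620 and 3350) with a log2 ratio of -0.085 in DU145. SLCO2B1 was at least 5.12-fold lower in DU145 (40.6 to a dim spot), where it too could only come out lower. Of the other receptors, PTGER1, the EP1 receptor, was 2.01-fold higher in PC3 (15.3 and 33.9), while in DU145 it gave 73.4 and 41.1.

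The lipoxygenase branch is the other main use of arachidonic acid. In PC3, 2 of its 10 genes compared were over 2-fold lower and 0 higher, beside 3.87% and 3.88% of all genes. ALOX5AP, the protein that presents arachidonic acid to 5-lipoxygenase, was 11.1-fold lower (142 ± 14.3 and 14.1 ± 2.43) and LTC4S, the leukotriene C4 synthase, 2.37-fold lower (33.8 and 15.7). With normexp the log2 ratio of ALOX5AP was -1.60 in place of -3.47. It is best known from leukocytes. Of the 7 leukocyte markers listed, 5 were on the array, 2 of them above background in PC3-shC and 3 in PC3-shESS2, and their summed signal was 300.7 and 139.8. CD14 gave 221 and 54.7 of that, while PTPRC gave 59.7 and 60 and CD3E was dim in PC3, and the part of other cells in this result was not tested. In DU145, ALOXE3 was 2.37-fold lower (41.7 and 18.1).

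PTGS2 mRNA carries AU-rich elements, and proteins that bind such elements were read as a list. None of the 10 compared in PC3 was past 2-fold, where 3.87% of all genes were lower and 3.88% higher. In DU145, 1 of 11 was higher, beside 2.36% of all genes, and it was ZFP36, also known as tristetraprolin, which speeds the decay of AU-rich mRNAs and was 2.19-fold higher (6610 and 14900). In PC3 ZFP36 gave 842 and 1530, a log2 ratio of 0.72.

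The EP2 and EP4 receptors raise cAMP, and 22 genes of that pathway and its early response were listed. In DU145, 4 of the 22 were over 2-fold higher and 0 were lower, with a list median of 0.23, where 2.36% of all genes were higher and 2.47% lower. The 4 were PDE4B, a cAMP phosphodiesterase, 2.78-fold higher (182 and 520), and the immediate early nuclear receptors NR4A1, 3.01-fold (28.6 and 88.5), NR4A2, 3.11-fold (211 and 675), and NR4A3, 4.24-fold (438 and 1910). In PC3 the same nuclear receptors were faint. NR4A1 was dim on both arrays, NR4A2 gave 22 and 30.1, and NR4A3 went from a dim spot to 26.1, at least 2.65-fold higher. NR4A3 entered through the knockdown array alone, so it could only come out higher. It was the only gene of the 21 compared past 2-fold in that line, beside 3.88% of all genes higher and 3.87% lower.

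The plot of other processing shows how far the largest member ratios depend on how the signals were handled. In PC3 the log2 ratios of PTGS2, PTGES and PLA2G4A lay between -2.35 and -1.91, and that of PTGER4 between 1.36 and 1.54, under 7 alternatives. Averaging probes and using plain dim signals could not move these, since none of these genes has a dim PC3 spot or a further probe. In DU145, PTGES lay between 1.29 and 1.90. PTGS2 and PTGER2, whose DU145 signals lie between 1.90 and 51.6, came to 0.38 with normexp background correction and its offset of 50. LPCAT1, MBOAT2, MGLL and PTGER1 in PC3 were near 2-fold and passed it under 4, 5, 6 and 4 of the 7. Normexp also ended the 2-fold differences of several list genes, with log2 ratios of 0.14 for NR4A3, -0.41 for PTGIS, -0.55 for LTC4S and 0.26 for PTGER1 in PC3, and of 0.38 for PLA2G4D, -0.71 for SLCO2B1, -0.49 for ALOXE3, -0.82 for CBR3 and 0.77 for NR4A1 in DU145.

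**Figure D5:**
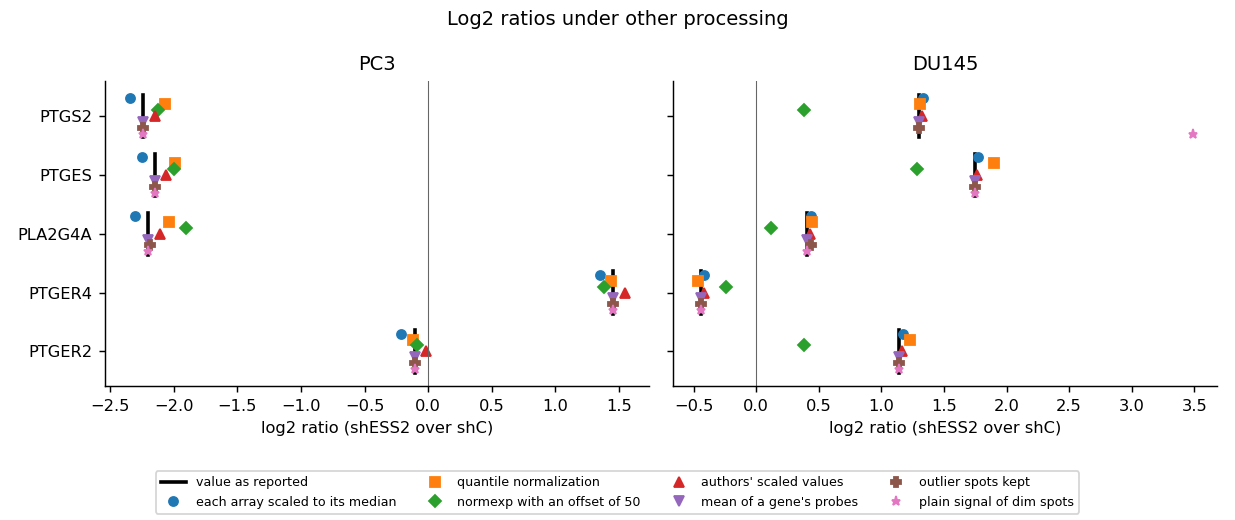
Log2 ratio of shESS2 over shC (horizontal) for 5 members in PC3 (left) and DU145 (right), as reported (black bar) and under 7 other ways of processing (symbols). The PC3 values keep close together, though some of the 7 ways cannot change a gene with no dim spot or further probe. PTGS2 in DU145 runs from 0.38 with normexp to 3.49 with the plain signal of its dim control spot.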

How the data were processed

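RNA of the 4 cell populations was measured on 1-colour Agilent arrays, 1 an array. The authors deposited the scanner output of Agilent Feature Extraction (12.1.0.3 for PC3, 12.0.3.1 for DU145), in which the intensity of each spot is background-subtracted and unscaled, and a table of scaled intensity in which each column is that signal times 1 constant. GeneSpring settings are not given in the sources used here.

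Here log2 signals were taken relative to the 75th percentile of the non-control spots of each array (263, 290, 212 and 218 for PC3-shC, PC3-shESS2, DU145-shC and DU145-shESS2), with control and outlier spots left out and spots of 1 probe averaged. Of the 60901 non-control spots, 50.8 to 52.6% an array passed the software's call of well above background, and 0 were saturated. Accessions were matched, without versions, to a RefSeq table of GRCh38.p14, which left 23119 of 58196 probes unnamed. A gene was read from its probe with the highest mean. Genes above background on at least 1 array of a line were compared, a dim value was raised to the lowest signal above background on its array (so that such a fold is "at least"), and over 2-fold counted as different. A gene above background on only 1 array of a line could only come out higher on that array. Errors after ± are the scanner software's, except SE for limma.

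The members and all gene lists were chosen with earlier results of these data known. Named are all members, list genes past 2-fold, ESS2, GAPDH, ACTB, the 5 genes nearest PTGS2, marker genes (some are not reported here) and 2 neighbours of PTGS2. Levels in the lines were tested with limma 3.58.1 (R 4.3.3; ~ line + knockdown, eBayes, Benjamini-Hochberg at 0.05) over genes above background on at least 2 arrays. On simulated data over 17126 genes it recovered 200 of 200 changed genes with 3 false calls. The simulated arrays held independent noise and no response to knockdown, so this checks the code and not the p-values of the real fit. Alternatives were median scaling, quantile normalization, normexp with an offset of 50 (on the median spot signal), the authors' scaled values, dim spots at their plain signal, all probes of a gene averaged, outlier spots kept, other filters on dim genes and no term for knockdown. Python 3.11.15, numpy 2.4.6, pandas 2.3.3 and matplotlib 3.10.9 were used.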

Additional observations from a re-analysis of the deposited data

Results flagged for a closer look

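Among the members and the list genes past 2-fold in either line, the log2 ratios of shESS2 over shC pointed in opposite directions in PC3 and DU145, each by more than its scanner error, for 4 members and 2 list genes. The PC3 ratio minus the DU145 ratio was -3.54 for PTGS2, with a DU145 ratio that is a bound, -3.90 for PTGES, 1.90 for PTGER4 and -2.61 for PLA2G4A. It was -2.70 for LPCAT1 and 1.88 for PTGER1. With normexp the DU145 ratio of PLA2G4A was 0.12 in place of 0.41, and the ratios of PTGER1 were 0.26 in PC3 and -0.51 in DU145 in place of 1.01 and -0.88. With 1 array for each condition the difference between the lines was not tested.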

How the results depend on the processing

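No replicate block was fitted, as the labels carry no replicate numbers, and with 1 array for each condition no array could be left out. A knockdown term over both lines was not tested, since the set was chosen on that contrast. The log2 ratio of PTGS2 in PC3 moved by less than its scanner error under the 7 alternatives. Averaging probes, keeping outlier spots and plain dim signals could not move it, as it has no further probe and no dim or flagged spot there. In DU145, where it was at least 1.30, it was 0.38 with normexp and 3.49 with the plain signal of the dim control spot. With normexp, 1 member (PTGES) was past 2-fold in DU145 in place of 3, all upwards, so that 1 was higher. With no filter, which also gives genes dim on both arrays their plain signals in place of the floor, 1 member, PTGS1, was lower there. Over all genes, those lower and higher by over 2-fold in PC3 numbered 649 and 650, 323 and 248 with normexp, and 1106 and 1232 with no filter. In DU145 they numbered 416 and 397, 77 and 139 with normexp, 964 and 810 with no filter, and 271 were lower with a filter on both arrays. Scaling to the median moved the median of all genes in PC3 from -0.055 to -0.16 and the share of higher among those past 2-fold from 50.04 to 38.9%, the authors' scaled values moved that share to 59.7%, and normexp moved it in DU145 from 48.8 to 64.4%. Of the 7 members called between the lines, 4 were called with the authors' scaled values, 4 among genes above background on all 4 arrays (where PTGS2, HPGD and SLCO2A1 could not be tested), and 3 members were called with no filter. The PTGES3 difference changed sign to -0.0075 with quantile normalization and to -0.15 with the authors' scaled values, and passed with median scaling (0.65, adjusted p = 0.0484) and with no filter (adjusted p = 0.0432). Signals near the floor limit PTGS2, PTGER2 and PLA2G4A in DU145, HPGD, PTGER1, and faint list genes such as NR4A3 and PTGIS in PC3.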
